A study of Mus musculus with 12 samples.

Results

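The genes described here build and run the mitotic spindle and divide the cell: cyclins and kinases of mitotic entry, the spindle checkpoint, the anaphase-promoting complex, the chromosomal passenger complex, mitotic kinesins, the kinetochore, midzone and cytokinesis proteins, and proteins that shape mitotic chromosomes. They were chosen as a list of 45 names, each gene represented by its probe set with the highest mean over all arrays. Of the 45, 44 had a probe set with 1 gene symbol, among 18193 such genes on the array, and all 44 passed the filter on low values that left 12609 genes for testing. Ccnb1, which encodes cyclin B1, had no probe set named with it alone and was not analysed here.

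RNA came from 4 cell types of C57BL/10.RIII mice, each measured on 3 Affymetrix arrays. EncT were encephalitogenic T cells, labelled CD4+, which in mice can cause inflammation of the brain and spinal cord. nFoxA1Treg were FoxA1 regulatory T cells labelled CD4hi and PD-L1hi, named in the sample titles after induction by neurons but given as natural in the cell type field. Treg were regulatory T cells labelled CD4+ and TGFbeta+, and iFoxA1Treg were FoxA1 regulatory T cells induced with IFN-beta, labelled CD4hi and PD-L1hi. No age, tissue, culture or time was given, and it is not stated whether the 3 arrays of a group stand for separate animals. The p-values therefore measure only the spread between arrays, which may be technical.

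As background, mitosis begins when Cdk1, bound to an A- or B-type cyclin, is activated by Cdc25 phosphatases. The checkpoint kinases and Mad2 hold back the anaphase-promoting complex until every kinetochore is attached to the spindle, after which Cdc20 turns the complex on and securin and cyclin B are destroyed. Transcripts of these genes are scarce in resting T cells and accumulate late in the cell cycle, when MuvB complexes containing B-Myb and FoxM1 act at a promoter element called the cell cycle genes homology region, and NF-Y binds nearby CCAAT boxes.

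The promoters of 4 members are shown because these members had the smallest adjusted p in the comparison of nFoxA1Treg with EncT, among those whose values on every array are given and whose RefSeq start site window was at hand. Each stretch runs 5′ to 3′ on the gene's strand and holds the 250 bases before the annotated start and the first 30 bases after it, in GRCm38.p6 coordinates on the minus strand: Ndc80 at chr17:71526828-71527107, Cdca8 at chr4:124936888-124937167, Cdc20 at chr4:118437314-118437593 and Top2a at chr11:99024160-99024439. Capitals mark CCAAT, or ATTGG on the other strand, and TTTGAA or TTCGAA, the homology region letters, or TTCAAA on the other strand.
Ndc80: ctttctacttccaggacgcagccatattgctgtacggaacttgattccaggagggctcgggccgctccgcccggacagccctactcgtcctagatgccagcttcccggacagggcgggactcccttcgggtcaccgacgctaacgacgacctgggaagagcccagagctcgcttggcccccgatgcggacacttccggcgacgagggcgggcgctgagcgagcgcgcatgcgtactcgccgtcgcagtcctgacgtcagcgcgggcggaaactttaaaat
Cdca8: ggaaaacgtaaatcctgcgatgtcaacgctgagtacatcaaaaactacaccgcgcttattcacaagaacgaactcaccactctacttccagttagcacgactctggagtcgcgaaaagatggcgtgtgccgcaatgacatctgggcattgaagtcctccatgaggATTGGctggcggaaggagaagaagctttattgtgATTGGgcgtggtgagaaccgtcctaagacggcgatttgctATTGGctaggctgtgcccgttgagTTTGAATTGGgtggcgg
Cdc20: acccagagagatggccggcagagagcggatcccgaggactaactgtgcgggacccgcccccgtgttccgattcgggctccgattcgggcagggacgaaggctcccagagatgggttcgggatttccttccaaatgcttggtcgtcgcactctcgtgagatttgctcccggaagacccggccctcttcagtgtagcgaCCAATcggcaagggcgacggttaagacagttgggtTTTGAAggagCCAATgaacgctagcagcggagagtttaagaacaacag
Top2a: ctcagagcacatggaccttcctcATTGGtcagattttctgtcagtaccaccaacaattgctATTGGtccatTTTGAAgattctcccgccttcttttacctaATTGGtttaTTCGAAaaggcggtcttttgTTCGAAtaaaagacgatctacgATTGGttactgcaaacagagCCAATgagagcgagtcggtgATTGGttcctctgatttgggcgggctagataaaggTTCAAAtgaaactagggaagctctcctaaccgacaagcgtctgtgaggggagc
Cdc20 had TTTGAA beginning 18 bases before the start, with CCAAT beginning 53 and 8 bases before it. In Cdca8, TTTGAA began at base 14 after the start and shared its last base with the ATTGG at base 19, and the ATTGG matches upstream began 85, 51 and 11 bases before the start. Top2a had 4 matches to the homology region letters, from 179 to 23 bases before the start, and 6 CCAAT matches. Ndc80 had no CCAAT, and its 1 homology region match began at the last base shown, so its line carries no capitals.

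RefSeq windows of 300 bases (250 before and 50 after the start) were at hand for 38 of the 45 names, Ccnb1 included. TTTGAA or TTCGAA, on either strand, occurred in 31 of these 38 (81.6%), against 16.2% of 10147 other tested genes and 19.2% of all 32851 windows. CCAAT on either strand occurred in 29 (76.3%), against 42.1% of the other genes and 37.4% of all windows. Both were present in 27 members (71.1%) and in 6.44% of the other genes. A homology region match beginning between 60 bases before and 50 bases after the start was found in 29 members and in 4.61% of the other genes. Birc5, Mad2l1, Nuf2, Nusap1 and Pttg1 held neither set of letters in this window. Of the 18 members with a window that were higher in nFoxA1Treg than in EncT, 14 had a homology region match and 13 a CCAAT, and of the 19 that were not called, 17 and 15 did. These counts describe the letters only.

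Values below are log2 probe set signals after quantile normalization, and changes are differences between group means with the standard error (SE) of a limma fit over all 12 arrays. A gene was called changed at a Benjamini-Hochberg adjusted p under 0.05 over the 12609 genes. Since probe sets differ in how strongly they bind, levels are compared between arrays and never between genes.

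Arrays labelled iFoxA1Treg stood apart and went against the CD4 and T cell part of their label. Their correlations with arrays of the other groups, over all 45037 probe sets, were 0.683 to 0.739, against 0.815 to 0.847 between arrays of different groups among the other 3. Cd4, the coreceptor named in their label, averaged 4.24 ± 0.1 log2 there (SD, n = 3), whereas EncT averaged 10.57 ± 0.017, nFoxA1Treg 10.44 ± 0.068 and Treg 10.39 ± 0.057. The PD-L1 gene Cd274 averaged 10.01 on the iFoxA1Treg arrays and 7.63, 7.34 and 7.31 in EncT, nFoxA1Treg and Treg. The iFoxA1Treg arrays were thus high for the PD-L1 of their label, whereas the nFoxA1Treg arrays did not stand above EncT for it. Xist, transcribed from the inactive X, averaged 2.11 in iFoxA1Treg and 11.07 to 11.52 in the other groups, whereas Y-linked Eif2s3y averaged 9.66 there and at most 2.30 elsewhere. Summed linear signal of 10 T cell markers was 6030 to 6274 on iFoxA1Treg arrays against 19147 to 21774 on the others, that of 9 B cell markers 21904 to 23956 against 130 to 219, that of 14 macrophage markers 15727 to 16194 against 126 to 410, and that of 8 neutrophil markers 50097 to 50303 against 165 to 252. Sex, cell makeup and the iFoxA1Treg label therefore cannot be told apart, and in bulk RNA fewer dividing cells and less mitotic RNA per cell cannot be told apart in any comparison.

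The mitotic genes were slightly higher in both other CD4+ groups than in EncT, and far lower on the arrays labelled iFoxA1Treg. In nFoxA1Treg against EncT, 21 of 44 members rose and 0 fell by limma, where 8.46% of all genes tested rose and 11.2% fell. At an unadjusted p under 0.05 the members counted 32 higher and 1 lower (Anln). In both directions together, 4029 of the 12609 genes tested passed that threshold. The median member change was 0.28 log2, a 1.21-fold difference, with 43 of 44 above 0, beside a median of -0.00 over all genes, 49.3% of which were above 0. In Treg against EncT, 21 rose and 0 fell, where 6.23% of all genes rose and 10.3% fell. Here the unadjusted count was 31 higher and 1 lower, again Anln, where 3762 of all genes passed in both directions together. The median change was 0.27, and 42 of 44 members were above 0 (49.3% of all genes). All 3 nFoxA1Treg arrays lay above all 3 EncT arrays for 25 members (15.8% of all genes), and all 3 Treg arrays did for 25 (14.1% of all genes). Both comparisons use the same 3 EncT arrays, so their results are not independent of each other.

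**Figure D1:**
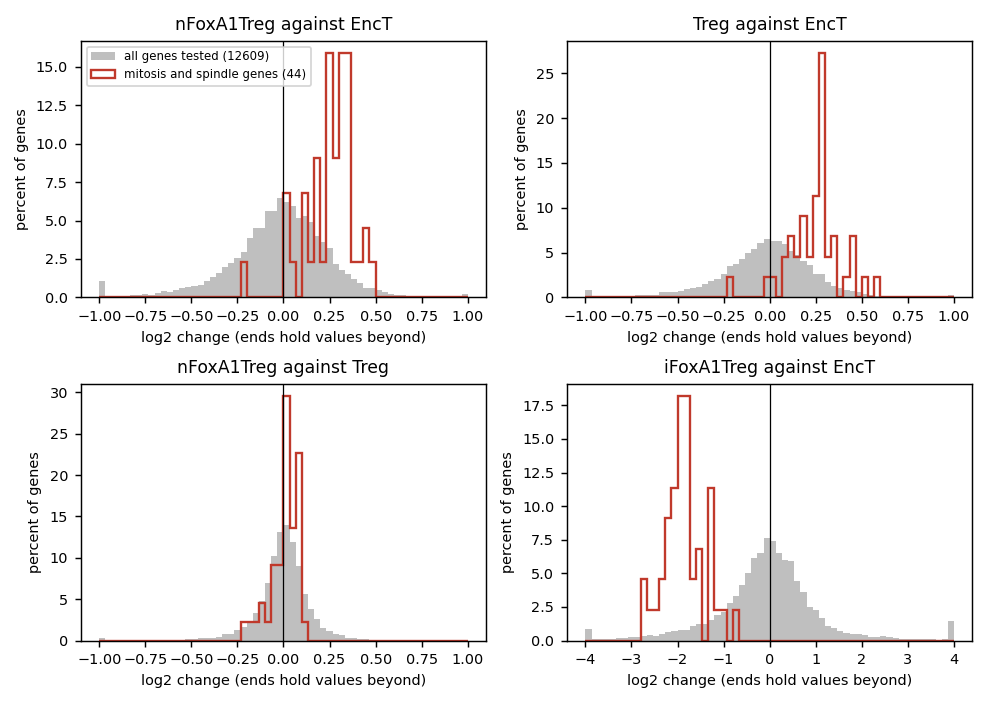
Distribution of log2 changes (x axis) as a percentage of genes (y axis) for the members and for all genes tested, by comparison. Members lie to the right of 0 for nFoxA1Treg and Treg against EncT (medians 0.28 and 0.27), around 0 for nFoxA1Treg against Treg, and far to the left for iFoxA1Treg against EncT (median -1.91).

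The size of these counts depended on which groups were fitted together and on single arrays. With only the arrays of the pair of groups compared, 10 members were higher in nFoxA1Treg than in EncT, where 3.89% of all genes were. In Treg against EncT 9 were higher and 1 lower, where 2.95% of all genes were higher and 6.12% lower. Leaving out nFoxA1Treg replicate 3 reduced the members higher in nFoxA1Treg than in EncT to 12, with 1 lower, where 6.64% of all genes were higher and 10.2% lower. Leaving out EncT replicate 2 raised them to 32, where 11.4% of all genes were higher. In Treg against EncT, 1 member was higher without Treg replicate 2, where 2.6% of all genes were, so that without this array the members' count was at the background. It was 4 without Treg replicate 3 (2.49% of all genes), 13 without EncT replicate 1 (3.67%) and 29 without EncT replicate 2 (9.56%). Of the 21 members higher in nFoxA1Treg, 8 were called in all 19 alternative analyses (Bub1, Mad2l1, Cdc20, Cdca8, Incenp, Kif4, Ndc80 and Top2a). Of the 21 higher in Treg, 1 was (Ndc80). The other nFoxA1Treg calls held in 8 (Cenpf) to 18 of the 19 analyses. The other Treg calls held in 7 (Racgap1 and Mki67) to 17 of them.

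The counts by role given from here on stand beside 8.46% of all genes rising in nFoxA1Treg and 6.23% in Treg. With so few genes in a role, a single call cannot be told from that share. Among the cyclins and entry kinases, 1 of 7 rose in each comparison with EncT, and it was Ccna2, which encodes cyclin A2. Ccna2 read 10.69, 10.91 and 10.82 log2 in EncT, 11.18, 11.07 and 11.14 in nFoxA1Treg, and 10.96, 11.09 and 11.12 in Treg. No EncT array reached the lowest array of either other group. The change was 0.32 ± 0.059 (SE, n = 3 per group; adjusted p = 0.00276) for nFoxA1Treg and 0.25 ± 0.059 (adjusted p = 0.0135) for Treg, and it was not called in nFoxA1Treg against EncT when only those 6 arrays were fitted (adjusted p = 0.0786).

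Cdk1, the kinase that drives entry, read 10.77, 11.03 and 10.84 in EncT, 11.00, 10.99 and 11.15 in nFoxA1Treg, and 10.90, 11.09 and 11.05 in Treg. EncT replicate 2 overlapped both other groups, and the changes of 0.17 (adjusted p = 0.106) and 0.13 (adjusted p = 0.223) were not called. Its partner cyclin B2, from Ccnb2, read 10.90, 11.22 and 11.07 in EncT, 11.19, 11.20 and 11.31 in nFoxA1Treg and 11.18, 11.29 and 11.22 in Treg. The groups overlapped, with a change of 0.17 in each comparison (adjusted p = 0.0997 and 0.122).

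Plk1, a kinase of centrosome maturation and checkpoint exit, spanned 9.02 to 9.57 in EncT (9.02, 9.57 and 9.28), against 9.45, 9.45 and 9.70 in nFoxA1Treg and 9.46, 9.62 and 9.57 in Treg. Its changes were 0.24 (adjusted p = 0.159) and 0.26 (adjusted p = 0.139). Cdc25b, a phosphatase that activates Cdk1, showed no such tendency, with 8.79, 9.25 and 9.03 in EncT, 8.98, 8.94 and 9.19 in nFoxA1Treg, and 8.96, 9.09 and 9.05 in Treg. Its change was 0.01 in both comparisons, with a 95% interval of -0.20 to 0.23 for nFoxA1Treg. Cdc25c and Aurka, which acts at spindle poles, had changes of 0.33 (adjusted p = 0.0829) and 0.35 (adjusted p = 0.0538) in nFoxA1Treg.

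**Figure D2:**
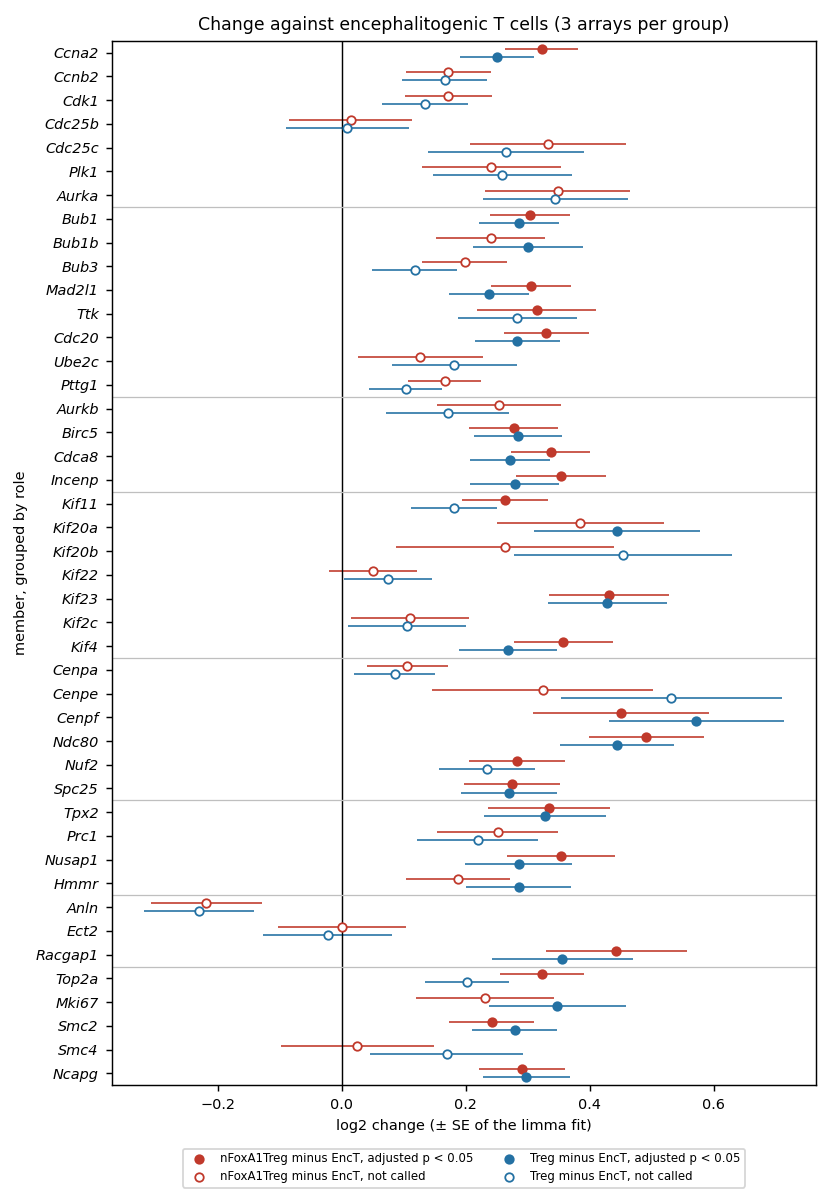
Log2 change (x axis, with the SE of the limma fit) of each member (y axis, grouped by role) in nFoxA1Treg and Treg against EncT, 3 arrays per group. Nearly all points lie between 0 and 0.57, and Anln is the member clearly to the left of 0 in both comparisons.

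Of the 8 checkpoint and anaphase-promoting complex genes, 4 rose in nFoxA1Treg (Bub1, Cdc20, Mad2l1 and Ttk) and 4 in Treg (Bub1, Bub1b, Cdc20 and Mad2l1). Cdc20, the activator of the complex, read 10.89, 11.17 and 11.13 in EncT, 11.37, 11.33 and 11.50 in nFoxA1Treg, and 11.29, 11.37 and 11.39 in Treg. Its EncT arrays lay below all 6 arrays of the other groups, by 0.33 ± 0.068 (adjusted p = 0.00543) and 0.28 ± 0.068 (adjusted p = 0.0146). Bub1 and Mad2l1, which signal unattached kinetochores, changed by 0.30 and 0.31 in nFoxA1Treg and by 0.29 and 0.24 in Treg. Bub3, which recruits Bub1 to kinetochores, read 11.01, 11.29 and 11.16 in EncT and 11.37, 11.33 and 11.36 in nFoxA1Treg, which did not overlap, but the change of 0.20 was not called (adjusted p = 0.0602). Bub3 read 11.16, 11.36 and 11.31 in Treg, a change of 0.12 (adjusted p = 0.281). Ube2c, the ubiquitin-conjugating enzyme of the complex, and Pttg1, which encodes securin, changed by 0.13 and 0.17 in nFoxA1Treg without passing the test.

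In the chromosomal passenger complex, which corrects faulty attachments and starts cytokinesis, the 3 non-kinase subunits Birc5 (survivin), Cdca8 (borealin) and Incenp rose in both comparisons. Cdca8, whose promoter is shown above, read 10.04, 10.25 and 10.20 in EncT, 10.46, 10.49 and 10.55 in nFoxA1Treg, and 10.43, 10.50 and 10.37 in Treg. The EncT arrays lay below all the others, with changes of 0.34 ± 0.064 (adjusted p = 0.00338) and 0.27 ± 0.064 (adjusted p = 0.0134). The kinase itself, Aurkb, read 9.06, 9.56 and 9.31 in EncT, 9.56, 9.52 and 9.62 in nFoxA1Treg, and 9.37, 9.52 and 9.55 in Treg. EncT replicate 2 overlapped both groups, and the changes of 0.25 (adjusted p = 0.094) and 0.17 (adjusted p = 0.278) were not called.

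Of the 7 mitotic kinesins, 3 rose in nFoxA1Treg (Kif11, Kif23 and Kif4) and 3 in Treg (Kif20a, Kif23 and Kif4). Kif4, a chromosome-bound motor that also shortens midzone microtubules, read 8.16, 8.38 and 8.25 in EncT, 8.61, 8.57 and 8.69 in nFoxA1Treg, and 8.47, 8.57 and 8.56 in Treg. No array overlapped with EncT, and the changes were 0.36 ± 0.079 (adjusted p = 0.00804) and 0.27 ± 0.079 (adjusted p = 0.0373). Kif23, the motor subunit of centralspindlin, changed by 0.43 in each (adjusted p = 0.00829 and 0.0106). Kif20b, needed for abscission, read 8.88, 7.98 and 8.79 in EncT, 8.70, 8.73 and 9.0 in nFoxA1Treg and 8.99, 8.98 and 9.04 in Treg. EncT replicate 2 lay far below the rest, and the changes of 0.26 (adjusted p = 0.343) and 0.45 (adjusted p = 0.0987) were not called. Without that array they were -0.02 and 0.17. Kif22, a chromosome arm motor, and Kif2c, which depolymerises microtubules at centromeres, had changes of 0.05 and 0.11 in nFoxA1Treg.

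Of the 6 centromere and kinetochore genes, 4 rose in nFoxA1Treg (Cenpf, Ndc80, Nuf2 and Spc25) and 3 in Treg (Cenpf, Ndc80 and Spc25). Ndc80, which with Nuf2 and Spc25 forms part of the complex that grips microtubules, read 8.04, 8.23 and 8.19 in EncT, 8.58, 8.65 and 8.71 in nFoxA1Treg, and 8.53, 8.68 and 8.59 in Treg. The groups were separated by more than the spread within EncT. Its change in nFoxA1Treg was the highest of the members, 0.49 ± 0.092 or 1.41-fold (adjusted p = 0.00311), and in Treg it was 0.44 ± 0.092 (adjusted p = 0.00697).

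Cenpf, an outer kinetochore protein, read 9.14, 8.55 and 9.31 in EncT, 9.42, 9.42 and 9.52 in nFoxA1Treg, and 9.54, 9.62 and 9.55 in Treg. Again EncT replicate 2 was lowest, no EncT array overlapped with the other groups, and the changes were 0.45 ± 0.14 (adjusted p = 0.041) and 0.57 ± 0.14 (adjusted p = 0.017). Without that array Cenpf changed by 0.22 (adjusted p = 0.0404) and 0.35 (adjusted p = 0.00536), and on its second brightest probe set the nFoxA1Treg change was -0.02. The nFoxA1Treg call held in 8 of 19 alternative analyses and the Treg call in 14. Cenpe, a kinesin that carries chromosomes to the spindle equator, read 8.63, 7.84 and 8.71 in EncT, 8.62, 8.62 and 8.91 in nFoxA1Treg, and 8.79, 9.03 and 8.95 in Treg. Its changes of 0.32 (adjusted p = 0.242) and 0.53 (adjusted p = 0.059) were not called, and without EncT replicate 2 they were 0.05 and 0.26. Cenpa, the centromeric histone, changed by 0.11 in nFoxA1Treg and did not pass the test.

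**Figure D3:**
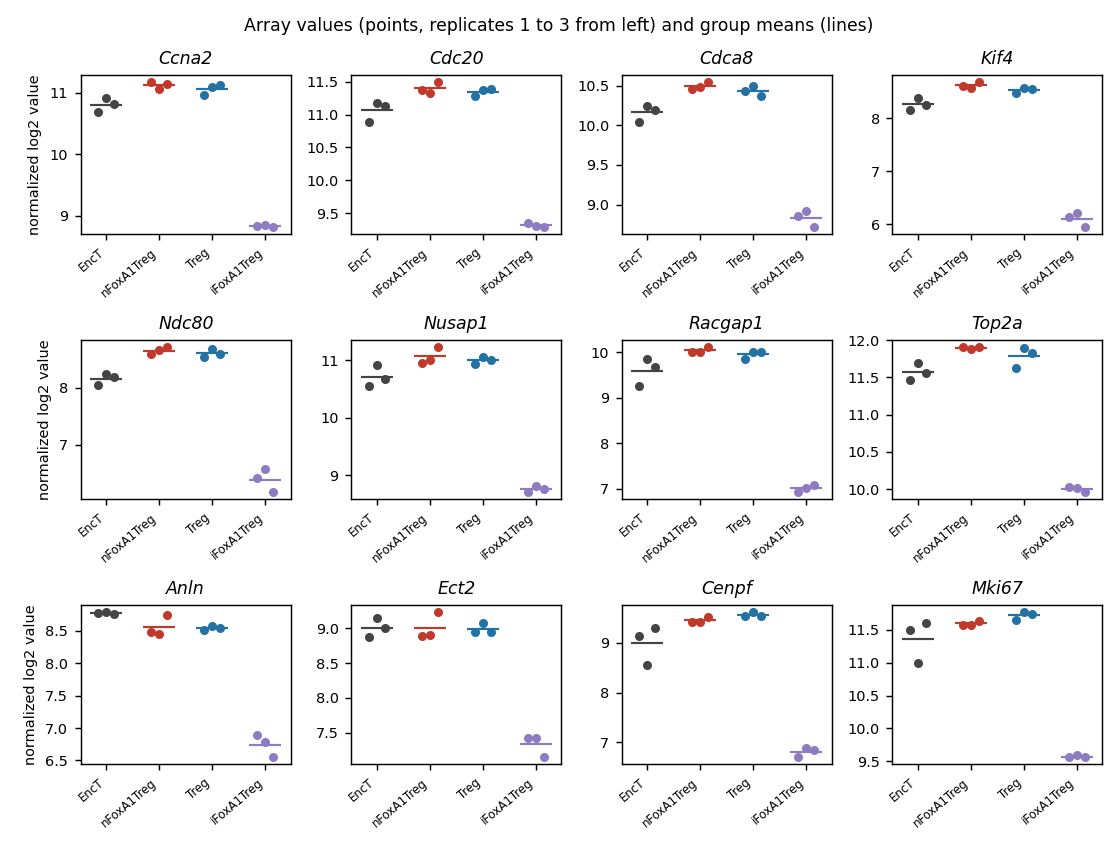
Log2 value on each array (points, y axis) and group mean (lines) of selected members in the 4 groups, 3 arrays per group. The iFoxA1Treg arrays lie below all others in each panel, while the distance between EncT and the nFoxA1Treg and Treg arrays is small beside it.

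Among the spindle assembly and midzone genes, Tpx2, which nucleates microtubules near chromosomes, and Nusap1, which bundles them, rose in both comparisons, and Hmmr rose in Treg. Nusap1 read 10.55, 10.92 and 10.67 in EncT, 10.96, 11.01 and 11.23 in nFoxA1Treg, and 10.93, 11.05 and 11.01 in Treg. EncT replicate 2 came within 0.1 log2 of both other groups without overlapping them, and the changes were 0.35 ± 0.087 (adjusted p = 0.0132) and 0.29 ± 0.087 (adjusted p = 0.0407). Prc1, which crosslinks midzone microtubules, read 9.37, 9.75 and 9.61 in EncT, 9.77, 9.79 and 9.93 in nFoxA1Treg, and 9.74, 9.87 and 9.79 in Treg. The nFoxA1Treg arrays just cleared EncT, the Treg arrays overlapped it, and the changes of 0.25 (adjusted p = 0.0891) and 0.22 (adjusted p = 0.148) were not called.

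Of the 3 cytokinesis genes, 1 rose in each comparison, where 8.46% and 6.23% of all genes did. Racgap1, the GTPase-activating subunit of centralspindlin, read 9.26, 9.84 and 9.68 in EncT, 10.00, 10.01 and 10.11 in nFoxA1Treg, and 9.84, 10.01 and 10.00 in Treg. All nFoxA1Treg arrays lay above EncT, while the lowest Treg array and the highest EncT array both read 9.84. Racgap1 rose by 0.44 ± 0.11 (adjusted p = 0.0162) and 0.36 ± 0.11 (adjusted p = 0.0487). The nFoxA1Treg call of Racgap1 held in 17 of 19 alternative analyses and the Treg call in 7. Ect2, the exchange factor that activates RhoA at the cell equator, read 8.88, 9.14 and 9.0 in EncT, 8.89, 8.90 and 9.23 in nFoxA1Treg, and 8.94, 9.07 and 8.94 in Treg. The 3 groups overlapped throughout, with changes of 0.00 (95% interval -0.22 to 0.22) and -0.02. Anln, the contractile ring scaffold anillin, read 8.78, 8.79 and 8.76 in EncT, above 8.48, 8.46 and 8.74 in nFoxA1Treg and 8.51, 8.57 and 8.55 in Treg. It was the member with the lowest change in each comparison, -0.22 (adjusted p = 0.109) and -0.23 (adjusted p = 0.099), and all 3 EncT arrays lay above all 6 others. Without nFoxA1Treg replicate 3 its change was -0.31 and passed the test (adjusted p = 0.0294), and with only the EncT and Treg arrays fitted its change of -0.23 did too (adjusted p = 0.0422).

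Of the 5 chromosome structure genes, 3 rose in nFoxA1Treg (Top2a, Smc2 and Ncapg) and 3 in Treg (Mki67, Smc2 and Ncapg). Top2a, the topoisomerase that untangles sister chromatids, read 11.47, 11.70 and 11.56 in EncT, 11.91, 11.88 and 11.91 in nFoxA1Treg, and 11.63, 11.89 and 11.83 in Treg. It lay above EncT on all nFoxA1Treg arrays, by 0.32 ± 0.068 (adjusted p = 0.00585), and overlapped in Treg, where the change of 0.20 was not called (adjusted p = 0.0585). Mki67, which encodes the proliferation marker Ki-67 on the surface of mitotic chromosomes, read 11.50, 11.00 and 11.60 in EncT, 11.58, 11.58 and 11.64 in nFoxA1Treg, and 11.65, 11.77 and 11.74 in Treg. EncT replicate 3 overlapped nFoxA1Treg but not Treg, and the changes were 0.23 (adjusted p = 0.176) and 0.35 (adjusted p = 0.0491). EncT replicate 2 was far below the other EncT arrays, and without it Mki67 changed by 0.05 (adjusted p = 0.555) and 0.16 (adjusted p = 0.0326). Its Treg call held in 7 of 19 alternative analyses. Smc4, a condensin core subunit, read 11.53, 11.03 and 11.53 in EncT, 11.19, 11.39 and 11.58 in nFoxA1Treg, and 11.60, 11.57 and 11.43 in Treg. These overlapped, with changes of 0.02 and 0.17 that were not called.

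Members deviated together on some arrays. EncT replicate 1 was the lowest of the 9 arrays outside iFoxA1Treg for 33 of 44 members, with a median deviation of -0.29 log2 from the mean of those 9 arrays, while the median over all genes on that array was -0.033. nFoxA1Treg replicate 3 was the highest of the 9 for 29 members, with a median deviation of 0.19. EncT replicate 2 held the highest EncT value for 34 members but the lowest of the 9 arrays for 7: Kif20b, Cenpe, Cenpf, Hmmr, Mki67, Smc2 and Smc4. It lay 0.86 log2 below the mean of the other EncT arrays for Kif20b and 0.16 below for Hmmr. The median SD of members was 0.148 in EncT, 0.0889 in nFoxA1Treg and 0.0761 in Treg, against 0.136, 0.0969 and 0.0869 over all genes. What set these arrays apart was not tested.

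**Figure D4:**
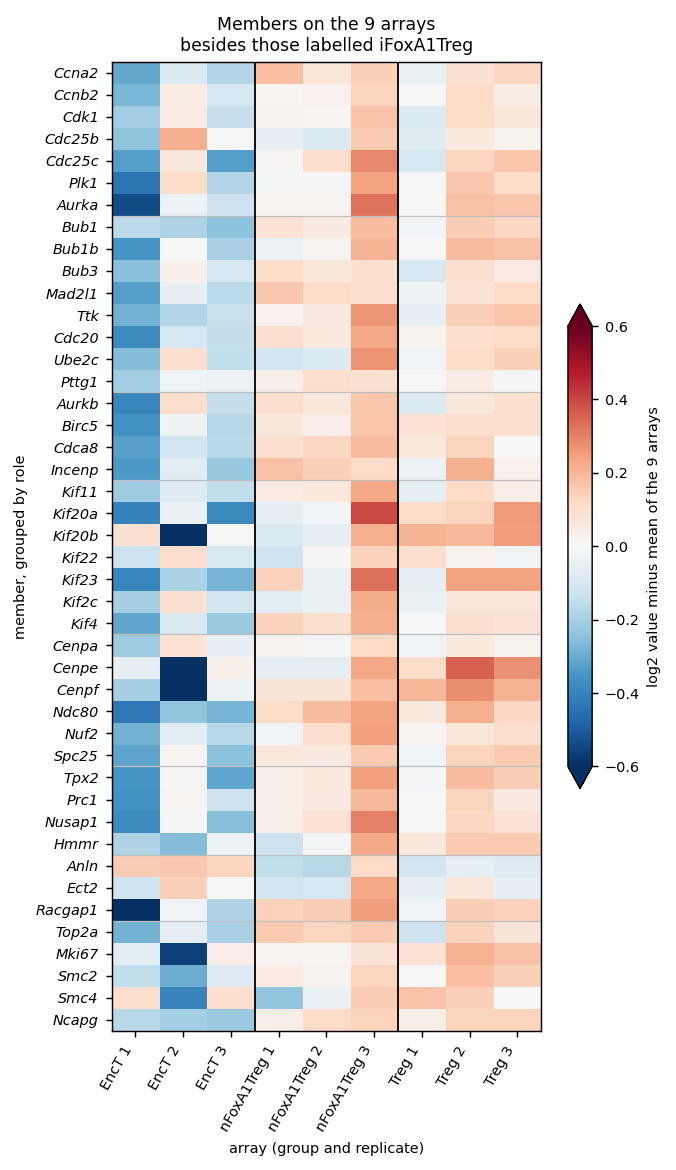
Deviation of each member (rows, grouped by role) on each of the 9 arrays outside iFoxA1Treg (columns) from the mean of those arrays, on a log2 colour scale. EncT replicate 1 is low in most rows, EncT replicate 2 is low in 7 rows, and nFoxA1Treg replicate 3 is high in most rows.

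Among markers of other cells, the summed macrophage signal was higher on all EncT arrays than on all nFoxA1Treg and Treg arrays. It was also lower on all nFoxA1Treg arrays than on all Treg arrays, groups between which no member was called. The sums of B cell, neutrophil, neuron and erythroid markers overlapped between EncT and both other groups. Summed linear signal of the 14 macrophage markers was 326 to 410 in EncT, 126 to 172 in nFoxA1Treg and 178 to 208 in Treg. Of these 14, 6 lay below the filter level of 4.05 log2 on all EncT arrays (Itgam, C1qa, C1qb, C1qc, Mrc1 and Aif1), 10 did on all nFoxA1Treg arrays (also Lyz2, Fcgr3, Cybb and Clec7a) and 9 on all Treg arrays (also Lyz2, Fcgr3 and Cybb). Markers of these cells that passed the filter could do so through the iFoxA1Treg arrays, where they were high, so no count of calls is given for them. Lyz2 averaged 5.18 log2 in EncT, 1.25 in nFoxA1Treg and 2.59 in Treg. Summed signal of the 9 B cell markers was 166 to 219 in EncT, 130 to 171 in nFoxA1Treg and 150 to 179 in Treg, with Blnk, Blk and Fcrla below the filter level on all arrays of the 3 groups, and Cd79a and Cd79b on all nFoxA1Treg and Treg arrays. Summed signal of the 8 neutrophil markers was 165 to 227 in EncT, 184 to 197 in nFoxA1Treg and 217 to 252 in Treg, with S100a8, S100a9, Ngp, Ltf and Camp below that level on all arrays of the 3 groups; Lcn2 averaged 7.13, 7.27 and 7.52 log2. For 10 neuron markers the sum was 240 to 319 in EncT, 278 to 332 in nFoxA1Treg and 318 to 326 in Treg. For 5 erythroid markers it was 74 to 103, 95 to 96 and 82 to 110. Summed T cell marker signal was 20825 to 21774 in EncT, 19147 to 20075 in nFoxA1Treg and 20060 to 20177 in Treg. This sum, too, was higher on all EncT arrays than on all nFoxA1Treg and Treg arrays. The part of these differences in the mitotic gene changes was not tested.

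nFoxA1Treg and Treg did not differ detectably in any member. By limma 0 of 44 were called, and 0 had an unadjusted p under 0.05, where 0% of all genes were called higher, 0.00793% (1 gene) were called lower and 468 had an unadjusted p under 0.05. Changes ran from -0.21 in Cenpe (95% interval -0.59 to 0.18) to 0.12 in Top2a (95% interval -0.03 to 0.27), with a median of 0.01. For Ndc80 the change was 0.05 (95% interval -0.15 to 0.25), for Racgap1 0.09 (-0.16 to 0.33) and for Mki67 -0.12 (-0.36 to 0.12). Over the members the intervals reached from -0.59 to 0.34, with a median half-width of 0.189. Differences of a size inside these intervals could not be resolved with 3 arrays per group. The order of group means was nFoxA1Treg, Treg, EncT and iFoxA1Treg from high to low for 28 members and Treg, nFoxA1Treg, EncT and iFoxA1Treg for 14.

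On the arrays labelled iFoxA1Treg every member was lower than in each other group. Against EncT 44 of 44 fell (38.3% of all genes did), by a median of 1.91 log2 or 3.77-fold; against nFoxA1Treg 44 fell (39.2%), and against Treg 44 fell (38.4%). The median changes against nFoxA1Treg and Treg were -2.10 and -2.15, and all 3 medians stand beside medians of -0.02 over all genes. At least 4-fold falls were seen in 15, 28 and 29 members (5.04%, 5.15% and 5.16% of all genes), and at least 2-fold falls in 42, 43 and 43 (14.4%, 14.8% and 14.7%). As given above, these arrays also carried less T cell and more B cell, macrophage and neutrophil marker signal and differed in sex-linked genes, and the part of these in the falls cannot be told apart from the label.

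The largest falls against EncT were in Ccnb2, Prc1 and Racgap1. Ccnb2 read 8.32, 8.33 and 8.39 in iFoxA1Treg, -2.71 ± 0.069 from EncT or 6.56-fold lower (adjusted p = 1.07e-12). Prc1 read 6.74, 6.92 and 7.06 there, -2.67 ± 0.097 or 6.37-fold lower, and Racgap1 read 6.93, 7.02 and 7.09, -2.58 ± 0.11 from EncT. Racgap1 was 8.15-fold lower than in nFoxA1Treg, the widest difference of any member. The smallest falls were in Smc4, Bub3 and Cdc25b. Smc4 read 10.79, 10.67 and 10.61, -0.67 ± 0.12 from EncT or 1.60-fold lower (adjusted p = 0.000254). Bub3 read 10.15, 10.28 and 10.22, 1.92-fold lower, and Cdc25b read 7.82, 7.86 and 7.93, 2.23-fold lower.

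For all 44 members the iFoxA1Treg arrays did not overlap with EncT (38.4% of all genes lay lower without overlap), with nFoxA1Treg (40.7%) or with Treg (40.5%). Ccna2 read 8.84, 8.85 and 8.82, Cdk1 8.93, 8.98 and 8.99, and Plk1 7.33, 7.34 and 7.40. Cdc20 read 9.35, 9.30 and 9.29, Aurkb 7.81, 7.72 and 7.67, and Cdca8 8.85, 8.92 and 8.72. Of the motors and kinetochore genes, Kif4 read 6.13, 6.22 and 5.95, Kif20b 7.31, 7.25 and 7.19, Cenpe 6.57, 6.81 and 6.60, Cenpf 6.70, 6.89 and 6.85, and Ndc80 6.42, 6.57 and 6.17. All of these stayed above the filter level of 4.05. Nusap1 read 8.71, 8.82 and 8.76, Anln 6.90, 6.78 and 6.55, Ect2 7.43, 7.43 and 7.15, Top2a 10.03, 10.01 and 9.96, and Mki67 9.56, 9.59 and 9.56. The change from EncT was -1.80 log2 for Mki67, -1.58 for Top2a and for Aurkb, and -2.03 for Anln.

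**Figure D5:**
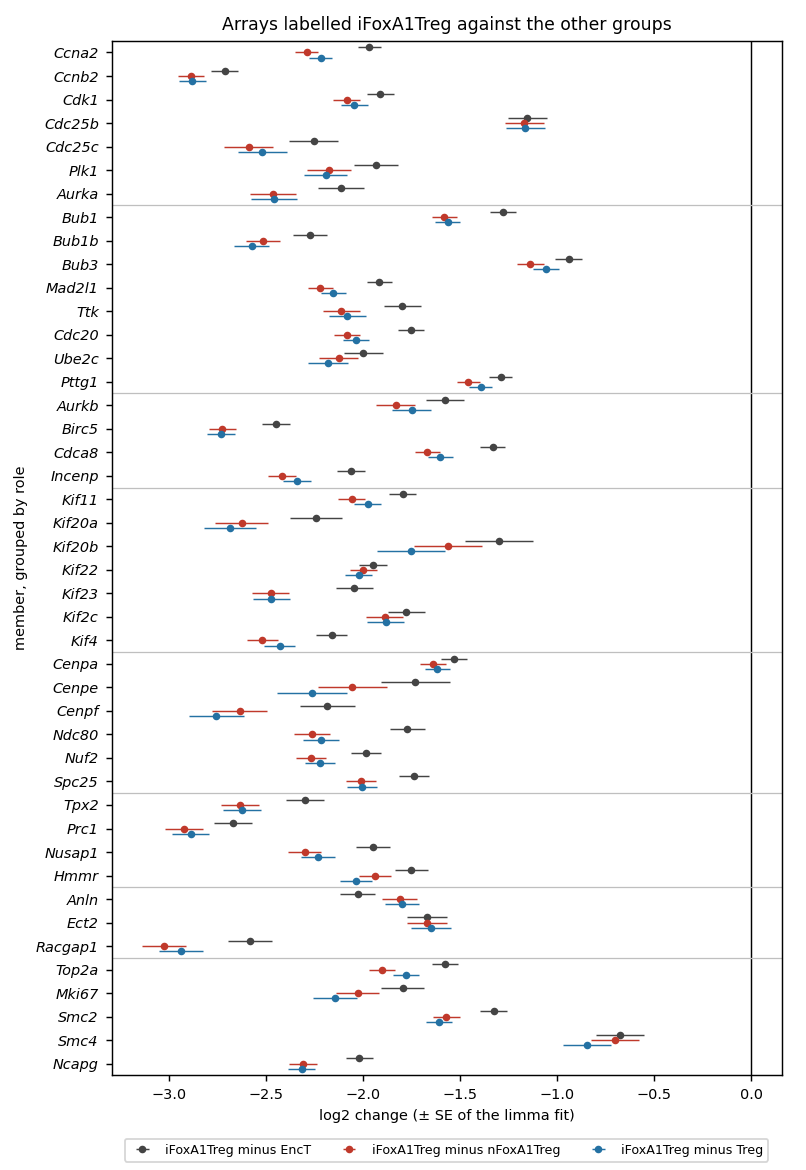
Log2 change (x axis, with the SE of the limma fit) of each member (y axis, grouped by role) on the arrays labelled iFoxA1Treg against EncT, nFoxA1Treg and Treg. All points lie below 0, from Smc4 against EncT (-0.67) to Racgap1 against nFoxA1Treg (-3.03).

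A further 51 probe sets past the filter, in 27 of the members, were not used in these values. They were called in a separate fit over all probe sets past the filter, and the share of all probe sets called in it was not counted. Of the 51, 15 were higher and 0 lower in nFoxA1Treg against EncT, and 12 higher and 0 lower in Treg against EncT. In that fit the probe sets used were called for 21 members in nFoxA1Treg and 19 in Treg. Of these members, 14 and 13 had another probe set past the filter. Another was called the same way for 9 of the 14 and 5 of the 13. In the fit by gene, 8.46% and 6.23% of all genes were higher. On the iFoxA1Treg arrays 48 of the 51 were lower than in EncT, where 38.3% of all genes were in the fit by gene. The other 3 pointed the opposite way: a pair for Smc2 were higher by 0.93 and 1.03, and 1 for Smc4 was higher by 0.65, so the condensin core genes differ by probe set. With the mean over probe sets, Smc4 was -0.16 against EncT (adjusted p = 0.273) and -0.30 against nFoxA1Treg (adjusted p = 0.0523), and neither was called.

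Other genes of mitosis, in 6 lists that held 134 tested genes, were also more often higher than lower beside EncT. In nFoxA1Treg against EncT 43 rose and 3 fell, with a median change of 0.20, where 8.46% of all genes rose and 11.2% fell. In Treg against EncT 35 rose and 3 fell, with a median of 0.19, where 6.23% and 10.3% of all genes did. Kinetochore genes accounted for 15 of 30 rising in nFoxA1Treg, including Cenpm (0.55, adjusted p = 0.0104). Spindle, centrosome and midbody genes gave 9 of 28, mitotic entry and exit control 7 of 16 with 1 lower, cohesin and condensin 5 of 19, and the anaphase-promoting complex with separase 4 of 18 with 1 lower. Anapc15, which helps release Cdc20 from the checkpoint complex, changed by 0.61, Cdca5 (sororin), a cohesion factor, by 0.53, and Pkmyt1, an inhibitory kinase of Cdk1, by 0.48. Among those that fell were Cdc26, a subunit of the complex (-0.24), and Ensa, a mitotic phosphatase inhibitor (-0.22). In the other lists the extremes that did not pass the test were Kif15 (0.52), Clasp2 (-0.14), Esco1 (-0.22), Cenpc1 (-0.10) and Tfdp2 (-0.25). On the iFoxA1Treg arrays 119 of the 134 fell and 5 rose against EncT, where 38.3% of all genes fell and 4280 of 12609 rose.

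Of 23 cell cycle transcription factors, 3 rose in nFoxA1Treg (Lin52, Mybl2 and Tfdp1) and 1 fell, where 8.46% and 11.2% of all genes did, so the list's counts lie near the background. The gene that fell was Rbl2, which encodes the pocket protein p130, by 0.13. In Treg, 1 rose (Tfdp1, 0.18) and 1 fell (Tfdp2, -0.32), where 6.23% and 10.3% of all genes did. Lin52, Tfdp1 and Rbl2 were chosen after their values were seen, because so few passed. Mybl2, which encodes the B-Myb partner of MuvB, read 6.71, 7.43 and 7.12 in EncT, 7.83, 7.72 and 7.78 in nFoxA1Treg, 7.39, 7.73 and 7.80 in Treg and 5.35, 4.93 and 4.62 in iFoxA1Treg. It was above EncT on all nFoxA1Treg arrays, by 0.69 ± 0.19 (adjusted p = 0.0239), and overlapped in Treg (0.55, adjusted p = 0.0668). Foxm1 read 6.57, 7.0 and 6.58 in EncT, 6.99, 6.99 and 7.09 in nFoxA1Treg, 6.86, 7.07 and 7.26 in Treg and 4.73, 5.16 and 5.24 in iFoxA1Treg. Its changes of 0.31 (adjusted p = 0.194) and 0.35 (adjusted p = 0.149) from EncT were not called, while on the iFoxA1Treg arrays it fell by 1.67 log2 from EncT.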

How the data were processed

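Total RNA of 12 samples was measured, 1 array each. Per the labels' protocols, Trizol and a DNase step were used for extraction. The submitters' processing notes name PLIER, a probe set summary method, with version, settings and between-array normalization not given in the sources used here. The authors deposited log2 values of 45037 probe sets, with the log base read from the values and dim probe sets below 0. Of these probe sets 34945 had 1 gene in the platform annotation, 932 several and 9160 none, and 34741 matched RefSeq.

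Array medians spanned 0.202 log2, and quantile normalization was applied. The brighter 60% of probe sets were kept (mean of at least 4.05 log2), each gene took its brightest, and 12609 genes remained. The test was limma 3.58.1 under R 4.3.3 (lmFit, a mean for each group, all 12 arrays, 8 residual degrees of freedom; eBayes with trend; two-sided p, Benjamini-Hochberg over all genes, threshold 0.05). The code was tested on simulated data. The number of arrays limits the precision. The members and lists were chosen with earlier results of these data known. Values on every array were given for the member with the smallest adjusted p in nFoxA1Treg against EncT in each of the 8 roles, the 3 highest and 3 lowest changes in each of the 6 comparisons, and Mki67, Top2a, Cdk1, Plk1 and Aurkb; of the other lists, Foxm1, Mybl2 and the highest and lowest change in nFoxA1Treg against EncT were named. Alternatives changed the normalization, filter, offset, probe set rule, variance model, arrays and replicate block.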

Additional observations from a re-analysis of the deposited data

How the results depend on the processing

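Among the members given on every array, called changes kept their direction in every alternative except for Cenpf, which was -0.02 in nFoxA1Treg against EncT on the second brightest probe set (adjusted p = 0.978). With only the arrays of the pair of groups compared, 10 and 9 members were higher (3.89% and 2.95% of all genes), and 1 was lower in Treg (6.12%). Array weights gave 31 and 32 higher and 1 lower in each, with calls also more frequent over all genes (16.7% and 14.1% higher, 20.8% and 19.2% lower). The median centring of each array gave 11 higher in Treg (3.4% of all genes), no intensity trend 10 (4.39%), and the second brightest probe set 12 (4.89%). Leaving out 1 array at a time gave 12 to 32 higher and 0 to 1 lower in nFoxA1Treg (4.85% to 11.4% of all genes higher), 1 to 29 higher in Treg (2.49% to 9.56%), 0 in nFoxA1Treg against Treg and 44 lower in each comparison with iFoxA1Treg. The median change of iFoxA1Treg against nFoxA1Treg was -2.27 with the mean over probe sets, -2.28 with the second brightest and -2.25 with the values as deposited; against Treg it was -2.02 with an offset of 16 before the log, -2.23 with the second brightest and -2.26 as deposited. With the replicate number as a block, 26 and 20 members were higher than in EncT (8.08% and 5.66% of all genes). Between nFoxA1Treg and EncT, deviations of same-numbered arrays correlated at -0.011 to -0.163 and those of differently numbered arrays at -0.0898 to 0.18. Between Treg and EncT, same-numbered arrays correlated at 0.0902 to 0.166 and differently numbered arrays at -0.12 to -0.0145. The main fit did not pair arrays by number, and whether the numbers pair Treg with EncT samples was not tested. The causes of these shifts were not tested.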
